A study of Mus musculus with 4 samples.

Results

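The 7 genes described here are transcription and RNA regulators of hematopoietic stem cells (HSC): *Mecom*, which the array annotation writes *Evi1*, and *Prdm16*, *Hlf*, *Erg*, *Etv6*, *Bmi1* and *Msi2*. They were taken by name, as every probe set whose gene symbol is one of these, which gave 22 probe sets of 45037 and 7 genes of 20656. RNA came from LSK cells (lineage-negative, cKit-positive, Sca1-positive) that were sorted from C57BL/6x129 fetal livers of embryonic age E16.5 and hybridized to 4 Affymetrix arrays. Both groups carried floxed *Ddb1*, labelled DDB1 flox/flox. The 2 control samples were VavCre- and the 2 *Ddb1*-deficient samples VavCre+, so that the controls do not show what Cre alone does. Cre was driven by the *Vav1* promoter, which is active throughout the hematopoietic compartment. The sources used here do not say how many embryos went into a sample, and p-values measure the spread between these samples. The 2 samples of a group held cells of different sex, as given below, so that this spread is not technical alone. In such sorted bulk samples fewer cells of a type and less RNA per cell cannot be told apart.

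An LSK gate holds HSC together with multipotent progenitors, and the 7 genes act on the stem cell side of that gate. *Mecom* encodes a zinc finger factor that long-term HSC need. Its locus makes a short protein, EVI1, and a longer one, MDS1-EVI1, which starts at a distal promoter and carries a PR domain. PRDM16 is its closest relative in the PR domain family, and HLF is a PAR bZIP factor that marks HSC in the embryo and the adult. ERG and ETV6 are ETS factors, the first mostly an activator and the second a repressor. BMI1 is a core subunit of Polycomb repressive complex 1, which silences the cell cycle inhibitor locus *Cdkn2a*. MSI2 is no transcription factor but an RNA-binding protein that regulates translation in stem and progenitor cells.

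The sequences just upstream of the transcript starts are printed for *Mecom* and *Hlf*, the members with the largest differences between the groups, and for *Bmi1*, the member that was lower. They are RefSeq sequence of build GRCm38.p6, run 5′ to 3′ on the strand of the gene over the 250 bases that end before the start, and capitals mark GGAA and, where it lies on the other strand, TTCC. GGAA is the core that ETS factors recognise.
Mecom, distal start (chr3:30509760-30510009, minus strand): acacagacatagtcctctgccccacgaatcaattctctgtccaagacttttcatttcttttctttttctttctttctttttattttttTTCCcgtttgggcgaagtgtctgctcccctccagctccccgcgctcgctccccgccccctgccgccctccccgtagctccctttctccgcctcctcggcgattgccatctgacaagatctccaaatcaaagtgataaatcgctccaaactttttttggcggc
Mecom, proximal start (chr3:30013205-30013454, minus strand): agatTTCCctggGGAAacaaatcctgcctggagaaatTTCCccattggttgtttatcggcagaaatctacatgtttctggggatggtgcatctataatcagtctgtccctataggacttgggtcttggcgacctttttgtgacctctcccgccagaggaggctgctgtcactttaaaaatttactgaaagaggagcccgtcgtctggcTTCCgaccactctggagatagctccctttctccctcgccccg
Hlf (chr11:90390918-90391167, minus strand): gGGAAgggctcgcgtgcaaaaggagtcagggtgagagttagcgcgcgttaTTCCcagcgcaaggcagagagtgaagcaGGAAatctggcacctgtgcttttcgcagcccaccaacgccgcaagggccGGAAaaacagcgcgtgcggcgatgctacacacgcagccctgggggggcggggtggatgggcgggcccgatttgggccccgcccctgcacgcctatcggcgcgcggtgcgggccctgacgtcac
Bmi1 (chr2:18676768-18677017, plus strand): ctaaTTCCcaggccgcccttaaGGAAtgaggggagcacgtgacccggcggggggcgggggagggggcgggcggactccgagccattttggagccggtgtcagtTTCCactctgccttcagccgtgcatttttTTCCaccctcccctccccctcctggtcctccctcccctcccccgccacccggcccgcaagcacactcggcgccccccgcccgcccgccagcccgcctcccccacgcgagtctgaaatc
The distal window lies next to the *Mecom* gene, annotated at chr3:29951296-30509759, and the proximal window lies inside it. The other 2 windows lie next to *Hlf*, at chr11:90336535-90390917, and *Bmi1*, at chr2:18677018-18686629. GGAA was found 1 time in the distal *Mecom* window and 4 times in each of the other 3. Of 32851 such windows in the set given by RefSeq, 93.4% hold GGAA at least 1 time, with a median of 3 matches, and 33.4% hold 4 or more. All 7 members matched this set, with 12 windows. GGAA was in 8 of the 12 and in none of the 3 *Msi2* windows, which overlap and cover largely the same bases. AGATAA, the core of the GATA site, was in 1 of the 12, an *Erg* window, against 9.99% of all windows, and TTACGTAA, the palindrome that PAR bZIP factors bind, was in 0 of the 12 against 0.113%. Both strands were searched, and an AGATAA match can share 1 base with a GGAA match. These matches are letters in a window and no measure of binding.

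*Ddb1*, the targeted gene, had log2 RMA intensities of 6.06 and 6.26 in the controls and of 4.58 and 4.33 in the *Ddb1*-deficient samples, which is in the direction of the labels. The difference was -1.70 (3.25-fold lower, SE 0.20, limma adjusted p = 0.162). On this scale the median of all values was 2.06, and a probe set at or near it is called dim here. The LSK markers *Kit*, *Ly6a*, *Cd34* and *Ptprc* (CD45) were above that median on all arrays and 0 of the 4 separated the groups. *Xist* and the Y-linked *Kdm5d* put 1 array of male and 1 of female cells in each group, the arrays numbered 1 being male. No gene of the 20656 was called by limma at an adjusted p under 0.05 (0% called), while 1012 were higher and 1245 lower at an unadjusted p under 0.05. The methods' t-test called 2 genes after Benjamini-Hochberg adjustment and limma with trend and robust settings 0. With 2 arrays against 2 an exact permutation test cannot go below p = 0.333.

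Of the 7 members, *Mecom*, *Hlf* and *Prdm16* were higher on both *Ddb1*-deficient arrays than on both control arrays, *Bmi1* was lower on both, and the groups overlapped for *Erg*, *Etv6* and *Msi2*. Each gene was read from its brightest probe set. Over all genes 22.5% were higher and 18.5% lower in this sense. None of the 7 passed limma's adjusted p. At an unadjusted p under 0.05 limma gave 3 of the 7, all higher, where the background was 4.90% of genes higher and 6.03% lower. The methods' t-test gave 1 of them, *Mecom*, unadjusted and 0 adjusted. The median difference over the 7 genes was -0.12 and over all genes 0.03, the members lying on both sides of 0.

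**Figure D1:**
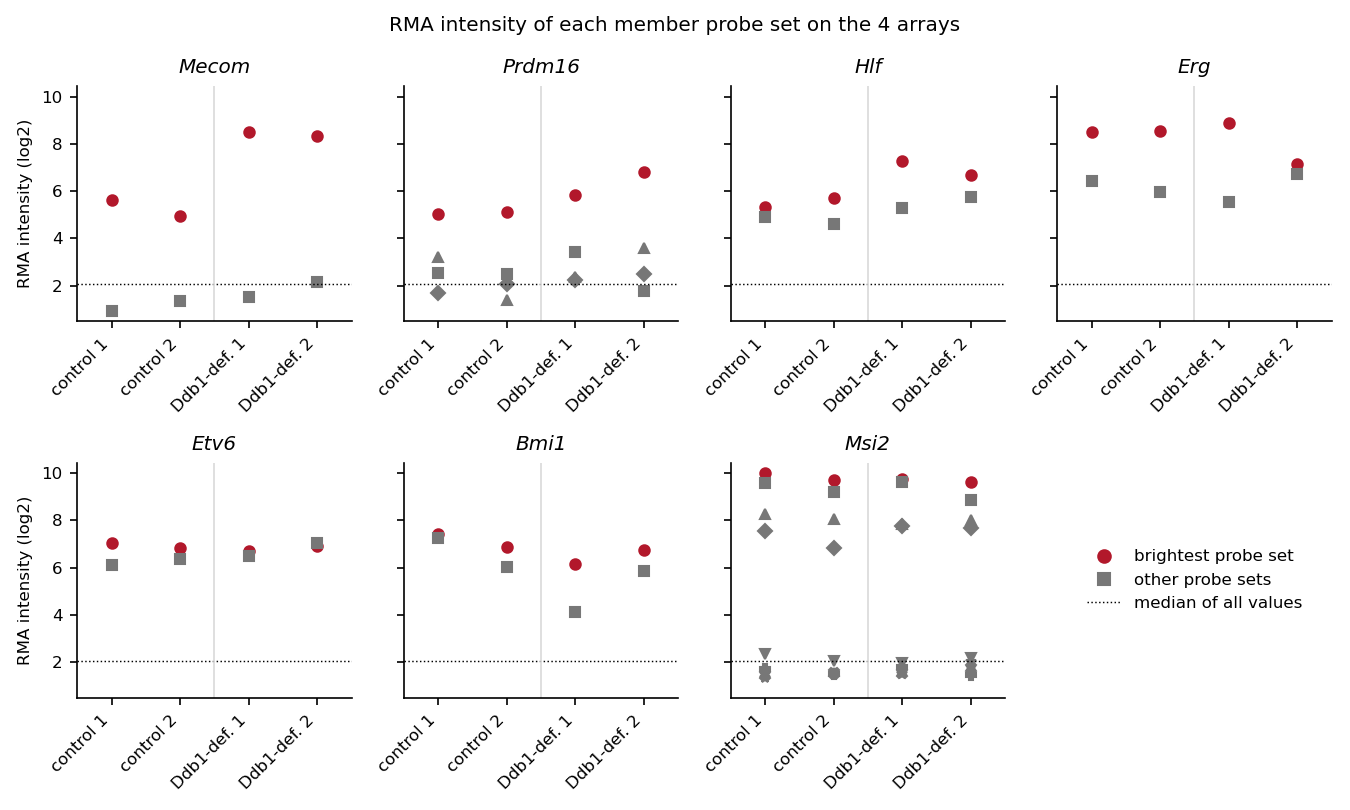
RMA intensity (log2) of all 22 member probe sets on the 2 control and 2 *Ddb1*-deficient (Ddb1-def.) arrays, 1 panel per gene; red circles are the brightest probe set of the gene, grey symbols the others, and the dotted line is the median of all values, 2.06. The red *Mecom* circles lie at 4.94 and 5.62 in the controls and at 8.35 and 8.50 in the *Ddb1*-deficient arrays, while those of *Msi2* lie between 9.63 and 10.01 on all 4.

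*Mecom* had the largest difference of the members. Its brightest probe set, 1438325_at, was at 5.62 and 4.94 in the controls and at 8.50 and 8.35 after *Ddb1* deletion. Both *Ddb1*-deficient arrays stood far above both controls, by at least 2.73 on the log2 scale for any pair of arrays. The group means were 5.28 ± 0.48 and 8.42 ± 0.10 (SD, n = 2 each), a difference of 3.14 (8.84-fold, 95% interval 2.31 to 3.97, limma unadjusted p = 0.00048, adjusted p = 0.146). Ordered by the difference it was number 40 of 20656 genes. The difference was 2.88 between the 2 male arrays and 3.41 between the 2 female arrays.

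The other probe sets of the *Mecom* locus were dim. Probe set 1423011_at was at 0.93 and 1.36 in the controls and at 1.53 and 2.13 in the *Ddb1*-deficient arrays, and only the last of these was above the median of all values. Its groups were apart in the same direction (difference 0.69, 95% interval -0.18 to 1.55). By the array annotation, whose genome build is not stated, its target ends 1276 bases nearer to the 5′ end of the gene than that of 1438325_at. The probe set written *Mds1*, 1422295_at, lies further 5′, and which exons its probes read was not available. It therefore cannot be assigned to the long form or to another transcript of the locus. It was at 2.15 and 1.44 in the controls and at 1.23 and 1.54 in the *Ddb1*-deficient arrays. These values overlapped, and the 1 above the median was a control, so that the distal probe set was not higher where the 3′ one was (difference -0.41, 95% interval -1.31 to 0.49). Its target ends 285273 bases 5′ of that of 1438325_at, and a transcript that is present but poorly reached by its probes cannot be told from an absent one.

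*Hlf* was the next largest, and both its probe sets separated the groups. Probe set 1434736_at was at 5.33 and 5.71 in the controls and at 7.27 and 6.69 in the *Ddb1*-deficient arrays. The lowest *Ddb1*-deficient value lay 0.98 above the highest control (means 5.52 ± 0.26 and 6.98 ± 0.41, SD, n = 2 each; difference 1.46, 2.75-fold, 95% interval 0.63 to 2.29, limma unadjusted p = 0.00834, adjusted p = 0.262). Probe set 1434735_at was at 4.92 and 4.62 against 5.28 and 5.73, a smaller difference of 0.74 (95% interval 0.03 to 1.44). The annotation gives both the same alignment, which does not show whether their probes read the same bases. They were not taken as 2 independent readings. *Hlf* was number 514 of all genes by the difference.

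*Prdm16* was higher at its brightest probe set and less clearly at the others. Probe set 1440870_at, at the 3′ end of the gene, was at 5.04 and 5.13 in the controls, which lay close together, and at 5.86 and 6.82 in the *Ddb1*-deficient arrays, which did not. The difference was 1.25 (2.38-fold, means 5.09 ± 0.07 and 6.34 ± 0.68, SD, n = 2 each, 95% interval 0.18 to 2.32, limma unadjusted p = 0.0314, adjusted p = 0.404), or number 697 of all genes. It was 0.82 between the male and 1.69 between the female arrays.

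The other 3 *Prdm16* probe sets, whose targets end 2356 to 3190 bases 5′ of that of 1440870_at, reached no more than 3.60 on any array. Probe set 1429308_at separated the groups at low values (1.69 and 2.08 against 2.23 and 2.47). Probe sets 1429309_at and 1440745_at overlapped, and 1429309_at was lower on *Ddb1*-deficient array 2 (1.75) than on both controls (2.51 and 2.50). All 3 were at or below the median of all values on 1 of the 4 arrays, and their differences were positive, between 0.08 and 0.68.

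**Figure D2:**
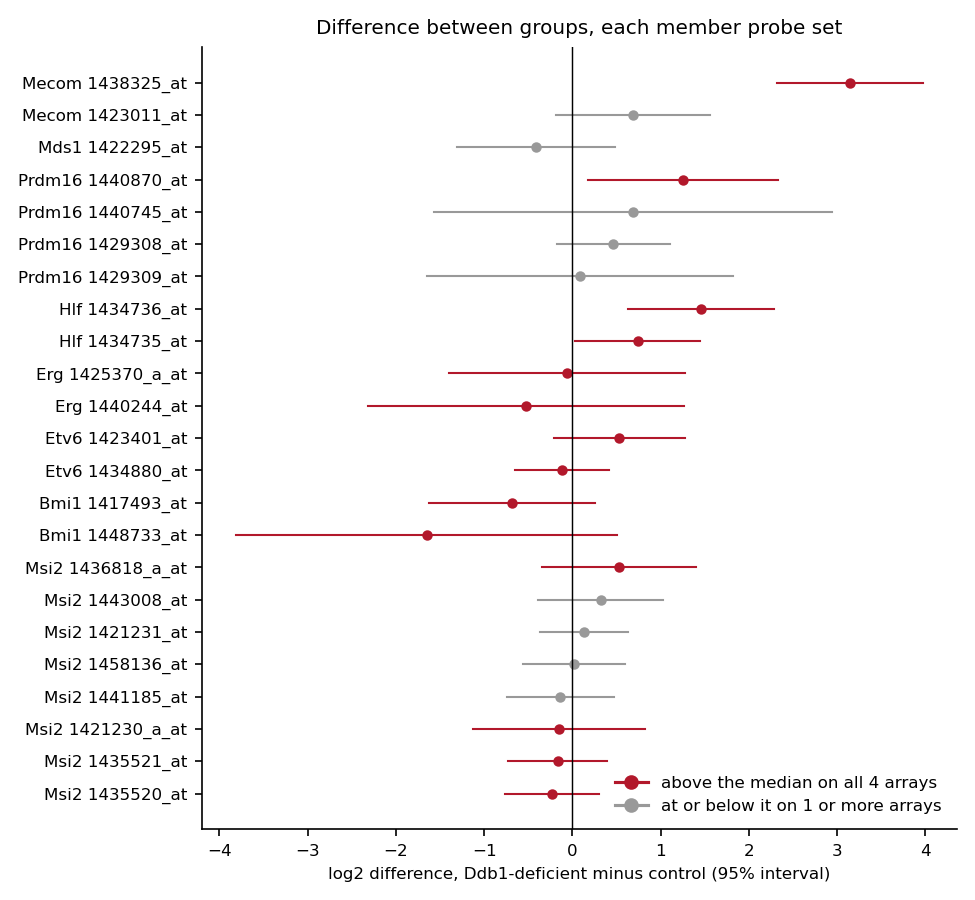
Difference in log2 RMA intensity between the *Ddb1*-deficient and control arrays (points) with limma's 95% interval (lines) for the 22 member probe sets and the *Mds1* probe set; red marks probe sets above the median of all values on all 4 arrays and grey the others. The interval lies above 0 for *Mecom* 1438325_at, *Prdm16* 1440870_at and both *Hlf* probe sets, and includes 0 for the rest.

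*Bmi1* was the 1 member that was lower, and its arrays were uneven. Probe set 1417493_at was at 7.41 and 6.86 in the controls and at 6.15 and 6.76 in the *Ddb1*-deficient arrays. The groups were apart by no more than 0.10 at their nearest arrays (means 7.14 ± 0.39 and 6.45 ± 0.43, SD, n = 2 each; difference -0.68, 1.61-fold lower, 95% interval -1.63 to 0.26, limma unadjusted p = 0.114, adjusted p = 0.59). The difference was -1.27 between the male and -0.10 between the female arrays. When the arrays were quantile normalized again, the groups overlapped. Probe set 1448733_at, given the same alignment, followed the same order of arrays, at 7.25 and 6.03 against 4.13 and 5.85 (difference -1.65, 95% interval -3.81 to 0.51).

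The ETS members did not separate the groups at their brightest probe sets. *Erg* 1440244_at was at 8.52 and 8.57 in the controls, at 8.88 on *Ddb1*-deficient array 1 and at 7.15 on *Ddb1*-deficient array 2. The 2 *Ddb1*-deficient arrays lay on either side of the controls, which gave a difference of -0.53 with a wide interval (-2.31 to 1.25, limma adjusted p = 0.837). Without *Ddb1*-deficient array 2 the difference was 0.34. The second *Erg* probe set, 1425370_a_at, at 6.41 and 5.96 against 5.53 and 6.71, put these 2 arrays in the opposite order, with array 2 above array 1. Its target ends 1041 bases 5′ of that of 1440244_at.

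*Etv6* differed little. Probe set 1434880_at was at 7.03 and 6.85 in the controls and at 6.72 and 6.93 in the *Ddb1*-deficient arrays (difference -0.12, 95% interval -0.67 to 0.43, limma adjusted p = 0.885). Probe set 1423401_at, whose target ends 3370 bases further 5′, was at 6.13 and 6.37 against 6.51 and 7.05, so that its groups were apart in the other direction (difference 0.53, 95% interval -0.21 to 1.27). The 2 probe sets thus disagreed in sign, and the interval of each includes 0.

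*Msi2* had 8 probe sets, and 4 of them were above the median of all values on all 4 arrays. The brightest, 1435521_at, was at 10.01 and 9.70 in the controls and at 9.74 and 9.63 in the *Ddb1*-deficient arrays, which overlapped (difference -0.16, 95% interval -0.74 to 0.41, limma adjusted p = 0.843). Probe set 1421230_a_at also overlapped, at 9.59 and 9.19 against 9.62 and 8.85. Probe set 1435520_at was lower (8.29 and 8.08 against 7.87 and 8.04) and 1436818_a_at, the most 3′ of the 8, higher (7.57 and 6.83 against 7.78 and 7.68). The bright probe sets of *Msi2* thus differed from -0.23 to 0.53 with no shared direction, and the interval of each includes 0. The other 4 were dim, between 1.30 and 2.36 on every array, and the annotation places 3 of them 25997 to 138573 bases 5′ of the last target end.

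Over all 22 probe sets 8 were higher and 3 lower on both *Ddb1*-deficient arrays, where 21.5% of all probe sets were higher and 18.0% lower. Of the 22, 14 were above the median of all values on all 4 arrays, and 6 of these were higher and 3 lower, against 18.1% and 26.8% of the 18071 such probe sets. Limma gave 4 of the 22 at an unadjusted p under 0.05, against 4.20% of probe sets higher and 5.48% lower, and 0 at an adjusted p under 0.05. The 4 were those of *Mecom*, *Prdm16* and *Hlf* whose intervals lie above 0.

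The pattern nearest to that of *Mecom* belonged to none of the other members. Likeness was the Euclidean distance over the 4 arrays after the control mean of each gene was subtracted, and the 4 nearest genes were *Fcgr1*, *Neo1*, *Aplp2* and *S100a4*, at distances of 0.33, 0.34, 0.40 and 0.54. *Fcgr1*, the high-affinity Fc receptor of macrophages and monocytes, was at 5.07 and 4.23 in the controls and at 7.86 and 8.03 in the *Ddb1*-deficient arrays, and *Neo1*, which encodes the receptor neogenin, at 2.23 and 1.81 against 5.46 and 5.29. *Hlf* and *Prdm16* came at numbers 392 and 608 by this distance, 2.51 and 2.84 away. *Hlf* was highest on *Ddb1*-deficient array 1 and *Prdm16* on array 2, while *Mecom* was nearly level on both. The values were not scaled, so that genes whose difference is unlike that of *Mecom* in size lie far from it whatever their order of arrays. The distance rests on 4 arrays and is a description.

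**Figure D3:**
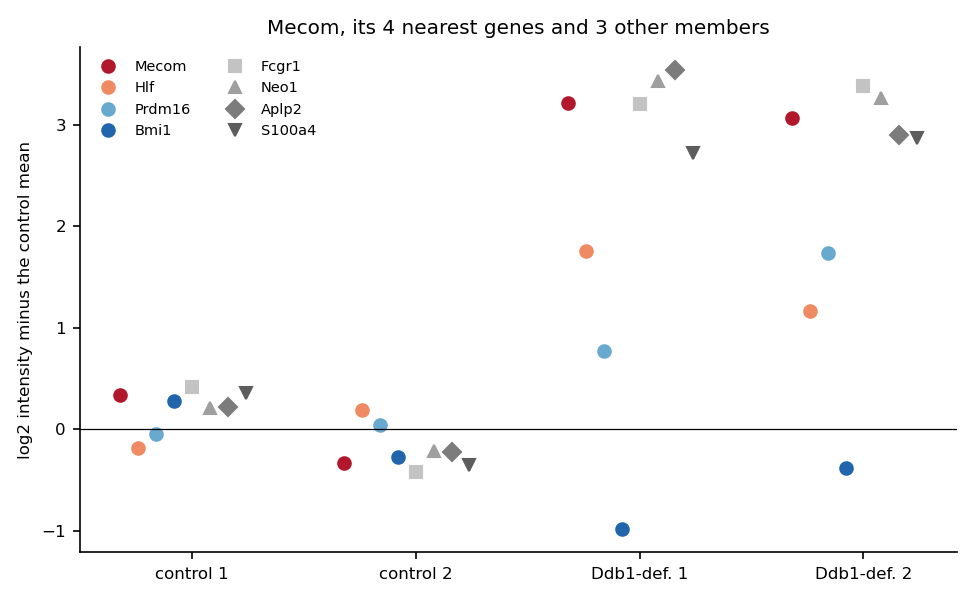
Log2 RMA intensity of each gene minus the mean of its 2 control values, on each of the 4 arrays, for *Mecom* (red), *Hlf*, *Prdm16* and *Bmi1* (other coloured circles) and the 4 genes nearest to *Mecom* (grey symbols); points are set side by side within an array. The 4 grey genes lie close to *Mecom* on all 4 arrays, and *Hlf* and *Prdm16* are higher on the *Ddb1*-deficient arrays by smaller amounts.

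The families, partners and targets of the members were counted in the same way, and limma called 0 genes of any of these lists at an adjusted p under 0.05. In the PR domain family, 11 of 13 listed relatives of *Mecom* and *Prdm16* were measured. Of these 4 were higher (36.4%) and 0 lower, against 22.5% and 18.5% of all genes. Dim in both groups were 4, among them *Prdm8*, which was counted as higher at values of 1.48 or less on every array. *Prdm11* was at 4.33 and 3.89 against 4.79 and 5.29 (difference 0.93), and limma gave it alone of the family an unadjusted p under 0.05 (0.0336, adjusted p = 0.414), but its 2 probe sets disagreed in sign. *Prdm9*, which encodes a meiotic histone methyltransferase, was also higher (difference 0.54). The median of the family was 0.08 and that of all genes 0.03. Of the other PAR bZIP factors, *Dbp*, a clock-controlled factor, was at 4.46 and 2.47 in the controls and 1.85 and 2.15 in the *Ddb1*-deficient arrays. *Tef* overlapped, and its 3 probe sets disagreed in sign. At the brightest probe sets *Hlf* was thus the 1 measured gene of that family that was higher.

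Of 24 relatives of *Erg* and *Etv6* in the ETS family 6 were higher and 6 lower, or 25% each against 22.5% and 18.5% of all genes, with a median of -0.04, and 7 were dim in both groups. *Ets1*, a lymphoid factor, was at 8.35 and 8.54 in the controls and at 6.82 and 5.79 in the *Ddb1*-deficient arrays (difference -2.14, limma unadjusted p = 0.00669, adjusted p = 0.246). *Spib*, which acts in B and plasmacytoid dendritic cells, and *Elk4* were lower by 1.87 and 1.09 on the log2 scale. *Spic*, the factor of red pulp and other iron-handling macrophages and itself a macrophage marker, was at 4.36 and 4.86 against 7.45 and 9.19 (difference 3.71, 13.1-fold, limma unadjusted p = 0.00517, adjusted p = 0.226).

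Among 23 other subunits of Polycomb repressive complex 1, the complex of BMI1, 5 were higher and 6 lower with a median of 0.10. These are 21.7% and 26.1%, against 22.5% and 18.5% of all genes. *Ring1* had the largest difference of the list, 1.53, but overlapped, at 2.97 and 1.90 against 4.99 and 2.94. The 4 with the largest differences among those that separated were lower: *Rybp* by 1.23, *Mga* by 1.20, *Pcgf5* by 1.09 and *Phc3* by 1.04 on the log2 scale. *Phc3*, a Polyhomeotic subunit, was at 6.31 and 6.06 against 5.13 and 5.16 (limma unadjusted p = 0.00571, adjusted p = 0.232), but its 2 probe sets disagreed in sign. *Cdkn2a*, the locus that BMI1 represses, was dim, at 1.77 and 2.08 in the controls and at 1.91 and 1.36 in the *Ddb1*-deficient arrays, and overlapped.

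*Gata2*, a stem cell factor that EVI1 activates, was at 5.67 and 5.80 against 6.23 and 6.28 (difference 0.51, limma unadjusted p = 0.0434, adjusted p = 0.442). Of 7 corepressors measured 1, *Sin3a*, was lower, by 0.77, and 0 were higher. These are 14.3% and 0%, against 18.5% and 22.5% of all genes. *Numb*, a target that Musashi proteins repress, was at 5.73 and 5.96 against 4.92 and 4.57 (difference -1.09), and *Msi1*, the paralog of *Msi2*, overlapped.

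Of 22 other transcription regulators of stem cells, 9 were higher and 7 lower, with a median of 0.05. These are 40.9% and 31.8%, against 22.5% and 18.5% of all genes. Limma gave 6 higher and 4 lower at an unadjusted p under 0.05, where the background was 4.90% of genes higher and 6.03% lower. *Mllt3*, a cofactor that sustains HSC, was at 7.01 and 7.03 in the controls and at 9.11 and 9.30 in the *Ddb1*-deficient arrays, in the same direction at all 4 of its probe sets (difference 2.18, 4.54-fold, limma unadjusted p = 0.000295, adjusted p = 0.133). *Gfi1* (difference 1.63), *Hoxa10* (1.33) and *Tal1* (1.22) were higher too. The stem cell regulators outside the 7 were thus also found in both directions.

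**Figure D4:**
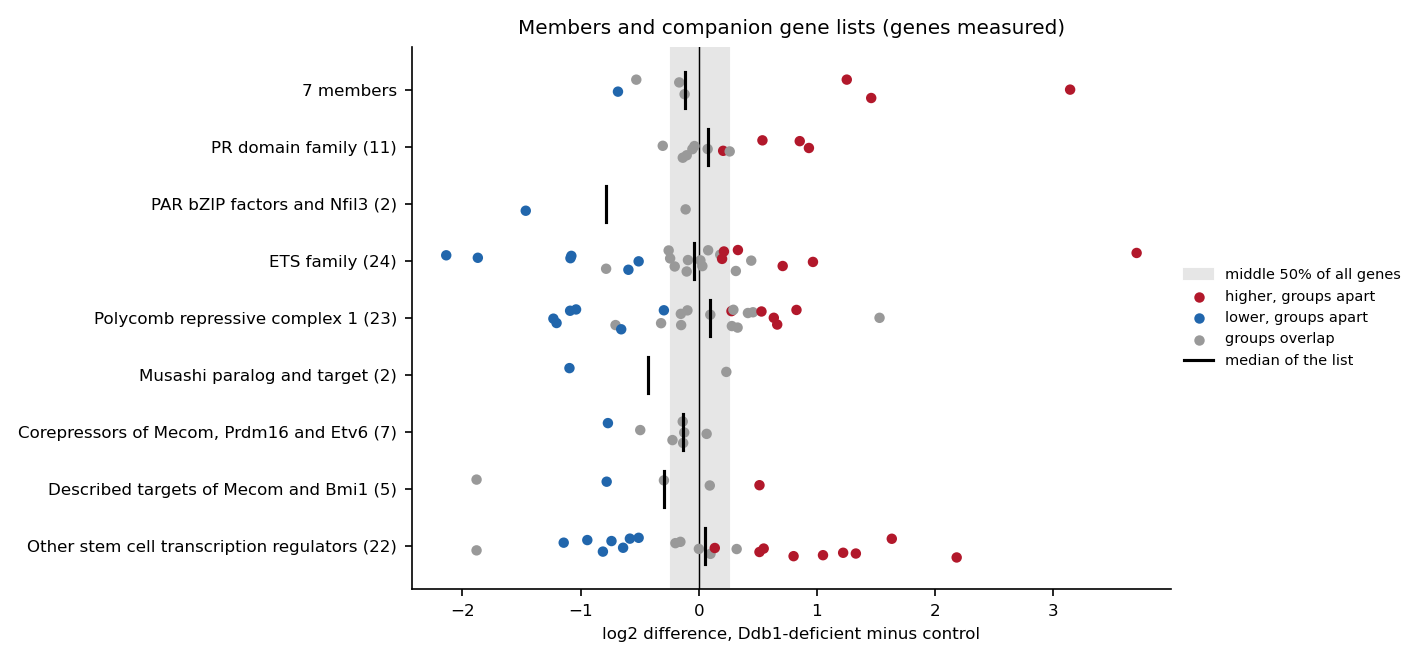
Log2 difference between *Ddb1*-deficient and control arrays for the 7 members and the measured genes of 8 companion lists (1 point per gene, from its brightest probe set); red and blue mark genes whose groups do not overlap, black bars are medians of each list, and the grey band is the middle 50% of all genes. The median of the members is -0.12, those of the lists of 5 or more genes lie between -0.29 and 0.10, and single genes such as *Mecom* and *Spic* lie far from them.

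Marker lists of cell types were counted in the same way, and they differed between the groups in both directions. The background for these counts is again 22.5% of all genes higher and 18.5% lower. All 14 macrophage markers measured were higher on both *Ddb1*-deficient arrays. Their summed linear intensity was 2964 and 4576 in the controls and 18891 and 22610 in the *Ddb1*-deficient arrays, and none was dim in both groups. Of 17 endothelial markers 10 were higher and 0 lower, with sums of 113 and 144 against 290 and 297. *Cdh5* (VE-cadherin) was at 3.25 and 3.72 against 5.25 and 6.01, and *Stab1* at 2.24 and 2.34 against 5.13 and 5.09, while 4 of the 17 were dim in both groups, among them the vessel receptor *Flt1*. *Flt1*, *Kdr*, *Pecam1*, *Egfl7*, *Lyve1*, *Robo4* and *Plvap* of this list overlapped. *Mecom* and *Erg* are also transcribed in endothelial cells.

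Of 3 HSC subset markers 2 were higher, *Procr* and *Thy1* (sums 32 and 27 against 179 and 113, of which *Procr* gave 18.2 and 19.2 against 153 and 100). *Thy1* was below the median of all values in the controls, at 1.22 and 1.03, and not far above it in the *Ddb1*-deficient arrays, at 2.56 and 2.69. *Procr*, the HSC surface receptor EPCR, was at 4.19 and 4.26 in the controls and at 7.25 and 6.65 in the *Ddb1*-deficient arrays, while *Slamf1* (CD150) overlapped, at 3.56 and 2.57 against 4.37 and 2.58. Both multipotent progenitor markers were lower (sums 406 and 290 against 121 and 206), and *Flt3*, a receptor of these cells, was at 6.01 and 5.85 against 2.00 and 1.49. The 5 myeloid progenitor markers were all lower, with sums of 3689 and 2555 against 46 and 125. Erythroid markers were higher at 8 of 10 genes, or 80% against 22.5% of all genes (sums 480 and 1133 against 2475 and 2975). Megakaryocyte markers were higher at 5 of 9, or 55.6%, and lower at 1 (265 and 262 against 742 and 751). *Gp9*, counted among the 5, was dim at 2.05 or less on every array. Hepatoblast markers were higher at 5 and lower at 2 of 11 (236 and 270 against 726 and 983). Of these sums *Trf* alone gave 72.8 and 80.3 against 481 and 672, while *Hnf4a* was lower by 2.64 on the log2 scale. The 6 B lineage markers were lower at 2, with sums of 4041 and 6008 against 3738 and 252, so that *Ddb1*-deficient array 2 stood apart there, as it did for *Erg* at 1440244_at but not at 1425370_a_at. Mast cell markers were lower at 4 of 6 (28 and 33 against 19 and 17) and 4 of the 6 were dim in both groups. The part of these cell types in the values of the 7 members was not tested.

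**Figure D5:**
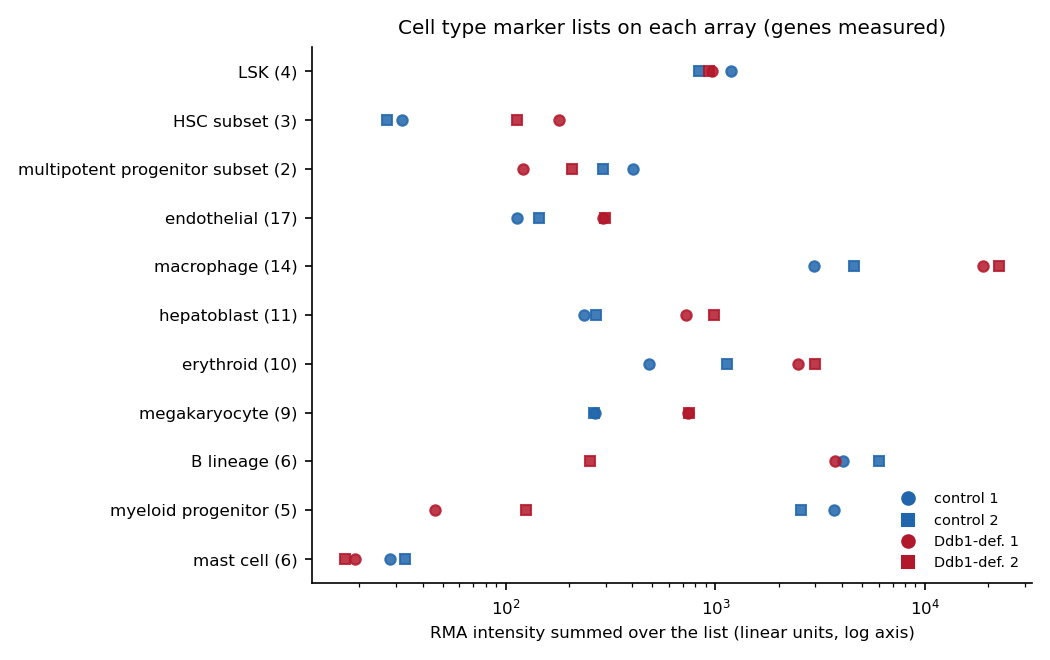
Linear RMA intensity summed over the measured genes of each cell type marker list on each array (log axis; blue, control; red, *Ddb1*-deficient; circles and squares, arrays 1 and 2). The macrophage and endothelial sums are higher on both *Ddb1*-deficient arrays, the myeloid progenitor sums are lower, and the B lineage sum is low on *Ddb1*-deficient array 2 alone.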

How the data were processed

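Gene expression was measured on 4 arrays, 1 per sample, grouped by their labels. The authors amplified the RNA in 2 rounds and processed the arrays with RMA in GeneSpring. In the deposited table the authors give each probe set an RMA intensity in linear units, beside log2 columns set against the control mean, and the deposited series matrix repeats the log2 values. A second table, of the authors' fold changes and p-values, was not used. Log2 of the intensity was taken, 64 control probe sets were dropped, and names were updated by Entrez ID from RefSeq (34158 probe sets matched, 4650 renamed). A gene was read from its probe set with the highest mean. The main test was limma (version 3.58.1, R 4.3.3; lmFit, eBayes, group only, 2 residual degrees of freedom) over 45037 probe sets or 20656 genes, Benjamini-Hochberg adjusted, at 0.05. Lists were only counted. From each list the text names up to 4 separated genes above the median with the largest differences, and overlapping genes of known role picked after their values were seen. Some genes that this rule takes are not reported here. The members and lists were chosen with earlier results of these data known. The fit was tested on simulated data. The number of arrays limits precision. Alternatives were the methods' t-test (two-tailed, equal variance), eBayes settings, the replicate block, other normalizations, probe set choices, filters, thresholds and each array left out.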

Additional observations from a re-analysis of the deposited data

How the results depend on the processing

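The members' differences kept their signs under every alternative run for *Mecom* (1.91 to 3.48), *Hlf* (1.10 to 1.75), *Prdm16* (0.62 to 1.74) and *Bmi1* (-1.17 to -0.38), the smallest values of the first 3 coming from the mean over all probe sets of a gene. Their adjusted p-values ran from 0.114 to 0.742, 0.147 to 0.806, 0.213 to 0.904 and 0.455 to 0.958, so that none was called under any. *Erg* changed sign without *Ddb1*-deficient array 2 (0.34), and *Etv6* (0.21) and *Msi2* (0.04) with the mean over all probe sets. The count of member genes past the threshold was 0, 3 with limma at an unadjusted p under 0.05 and 1 with the methods' t-test unadjusted. The 1 member gene that was lower without overlap, *Bmi1*, became 0 after quantile normalization again, and the count was 2 with the mean over all probe sets and 1 to 3 when each array was left out. Of probe sets, 3 were lower, 1 after quantile normalization again and 3 to 8 when an array was left out, which leaves 1 array in a group and separates more genes in general. With the replicate block the adjusted p of *Mecom* was 0.391, that of *Hlf* 0.444 and that of *Prdm16* 0.468, and no call changed. Replicate number coincides with the sex of the cells in both groups, so that the block is also a sex block. Same-numbered arrays did not deviate together (correlation of deviations 0.0024), and the block removed 1 residual degree of freedom. Among the companion lists, the median of the 2 PAR bZIP genes (-0.79) was -0.31 without control array 1, -1.26 without control array 2 and -0.15 without _x_at or _s_at probe sets, and that of Polycomb repressive complex 1 (0.10) was -0.17 without control array 2. A lone array was assumed to vary like the other group.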
